A study of Homo sapiens with 11 samples.

Results

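Polyadenylated RNA was counted in HEK293T cells given 10 µM of the compound A8 and in cells given its vehicle, DMSO, with the inhibitor ISRIB in neither group. The 2 groups hold 6 of the 11 libraries of the series, 3 with A8 and 3 with vehicle, taken by their labels with no use of measured values. HEK293T cells are a transformed line from human embryonic kidney with the large T antigen of SV40, and both groups come from this 1 line, which the growth protocol writes as HEK293. Treatment lasted 8 h by the sample titles and 4 h by the protocol text, and this discrepancy could not be settled. The remaining 5 libraries, 2 of vehicle with ISRIB and 3 of A8 with ISRIB, entered the estimate of the spread and 1 comparison at the end. The replicates are described as biological, and nothing says whether they came from separate cultures, so p-values measure the spread between these libraries. The question, from the title of the series, is how A8, which the title links to the RNA sensor RIG-I, acts on the integrated stress response.

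In the integrated stress response, kinases that sense amino acid shortage, unfolded protein, heme loss or double-stranded RNA phosphorylate the translation factor eIF2. General translation then slows while the mRNA of the transcription factor ATF4 is translated better, and ATF4 with its partners of the C/EBP family induces genes for amino acid uptake, amino acid synthesis and tRNA charging. ISRIB, a molecule that binds the exchange factor eIF2B, blunts this response. Separate programmes serve heat shock, in which HSF1 induces cytosolic chaperones, and the endoplasmic reticulum, in which ATF6 and XBP1 induce its chaperones and degradation machinery. TXNIP and ARRDC4, a pair of alpha-arrestins, are known targets of the glucose-sensing factor MondoA, which is encoded by MLXIP.

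The 6 libraries held 34485183 to 35153166 counts and 17925 to 18017 detected genes each. Of 27671 genes in the table, 15591 passed the filter on low counts and were tested. A count of 0 allows up to 0.0837 to 0.0883 CPM in a library, taken as 3 counts (CPM, the count scaled to a common library total, here with TMM factors for composition). This limit covers counting error only. Vehicle 3 stood apart from the other vehicle libraries, as chi-square per degree of freedom was 24.7 and 19.6 against them, 9.19 between vehicle 1 and 2, and 7.21 to 14.2 among A8 libraries. It also held less mRNA of cytosolic ribosomal proteins, 58844 CPM in sum against 73236 and 68787 CPM. All 8 markers of the HEK293 line, among them VIM, NEFM and CDH2, passed the filter. Of 17 markers of blood, liver, connective tissue, vessel, skin, muscle and islet cells 5 did, with summed levels of 21.9 to 25.3 CPM in vehicle and 18.5 to 20.3 CPM with A8. PTPRC, CD3E, PECAM1, HBB, KRT5, KRT14 and INS had 0 counts in all 6 libraries.

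A8 raised a small group of genes for amino acid supply, tRNA charging and stress signalling, and lowered cytosolic chaperones and both arrestins TXNIP and ARRDC4. By edgeR's quasi-likelihood test 13 genes rose (0.0834% of the 15591 tested) and 9 fell (0.0577%) at an adjusted p under 0.05. In all 22 the 3 A8 libraries lay on 1 side of the 3 vehicle libraries, which across all genes happened for 1320 genes upward (8.47%) and 1268 downward (8.13%). An unadjusted p under 0.05 was reached by 764 genes on the higher side (4.9%) and by 832 on the lower (5.34%). Counts of list members below are to be read against these shares. DESeq2, as the other test, called 63 of 10124 genes higher (0.622%) and 69 lower (0.682%). Fold changes were small. Among all genes tested the middle 50% of log2 fold changes lay between -0.096 and 0.11 with a median of 0.0069, and 51.8% of genes lay above 0. Of 10941 genes whose log2 CPM averaged 2 or more, the fold was at least 1.5 upward for 17 and downward for 11, and at least 2 for 2 and 4 genes. In bulk RNA a change in every cell and a larger one in some cells cannot be told apart. Values given for a gene without a unit are log2 fold changes of A8 over vehicle, and of paired sets of CPM levels the first is vehicle 1 to 3 and the second A8 1 to 3.

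**Figure D1:**
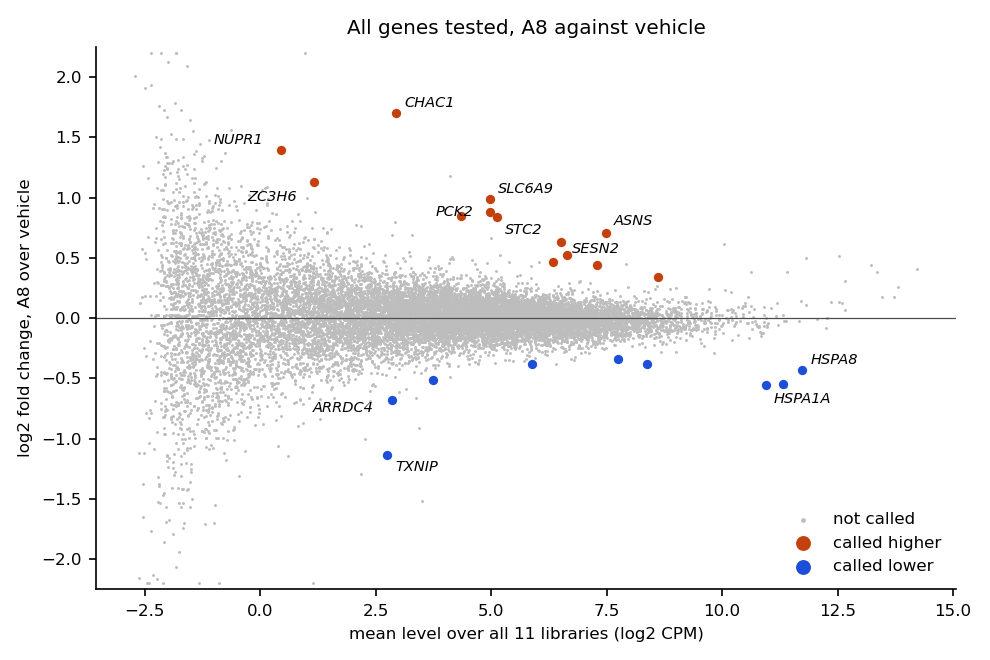
Each point is 1 of the 15591 genes tested, with its mean level over all 11 libraries on the horizontal axis (log2 CPM) and its log2 fold change of A8 over vehicle on the vertical axis. Values beyond the vertical axis are drawn at its ends. The 13 genes called higher and the 9 called lower stand at the edge of a cloud whose middle 50% spans -0.096 to 0.11, and the scatter widens toward low levels.

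How often a call was kept when 1 library was left out differed between genes. With each of the 6 libraries left out in turn 13 of the 22 genes stayed called every time, namely ASNS, CARS, CHAC1, CTH, MTHFD2, PCK2, PSAT1, SESN2, SLC6A9 and STC2 on the higher side and HSPA1A, HSPA1B and TXNIP on the lower. NUPR1 was called in 0 of the 6 fits, ARRDC4, SRSF11, TPRA1 and ZC3H6 in 1, DNAJB1 and LOC101927883 in 2, and GARS and HSPA8 in 3. Over these fits and the other settings of the analysis NUPR1 stayed between 1.18 and 1.55 and ZC3H6 between 0.97 and 1.31. ARRDC4 stayed between -0.77 and -0.61, SRSF11 between -0.43 and -0.33 and TPRA1 between -0.41 and -0.31. The number of genes called lower was 5 without vehicle 2 or A8 3, 4 when A8 1 was left out and 3 when A8 2 was. Leaving out a library with ISRIB changed the estimate of the spread. Without A8 with ISRIB 3 the fit called 33 genes higher and 17 lower, and without A8 with ISRIB 1 it called 20 and 12, an analysis chosen after seeing the data.

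Among the 13 raised genes A8 1 was the highest A8 library for 11 and A8 3 the lowest for 11. Among the 9 lowered genes no A8 library took the lowest place more than 4 times. The plot of called genes by library shows this spread beside that of the vehicle libraries.

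**Figure D2:**
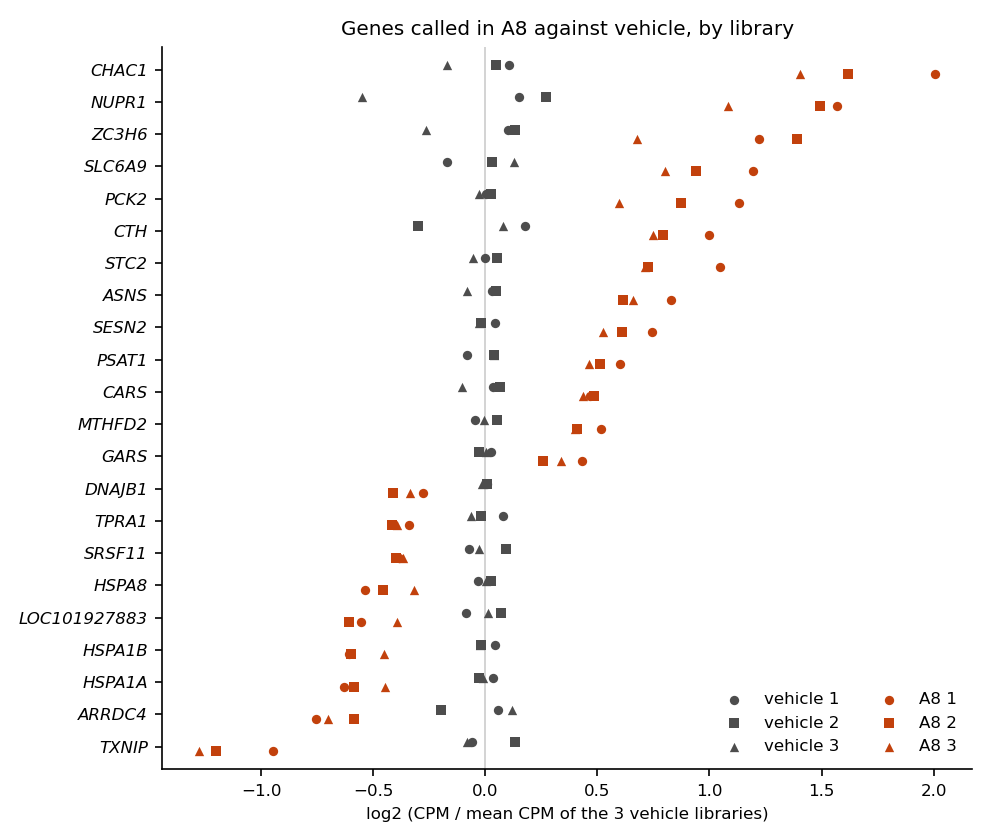
Each row is 1 of the 22 called genes, and each symbol is 1 library, grey for vehicle and orange for A8, placed on the horizontal axis by the log2 ratio of its CPM to the mean of the 3 vehicle libraries. No orange symbol lies within the range of the grey ones, and for CHAC1 the A8 libraries spread from 13.8 to 21.0 CPM.

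CHAC1, which cleaves glutathione and is a target of the stress factors ATF4 and DDIT3, showed the largest fold change among the called genes. Its level was 5.62, 5.40 and 4.64 CPM in the vehicle libraries and 21.0, 16.0 and 13.8 CPM in the A8 libraries. The lowest A8 library was thus well above the highest vehicle library, and the log2 fold change was 1.70 (SE 0.15, edgeR adjusted p = 3.67e-05). CTH, which releases cysteine from cystathionine, measured 19.2, 13.8 and 18.0 CPM with vehicle and 33.9, 29.4 and 28.5 CPM with A8, for a log2 fold change of 0.85 (SE 0.12, edgeR adjusted p = 0.00233). These were the 2 called genes among 10 tested for cysteine and glutathione turnover, where 6 lay above 0 and the median was 0.018. The enzymes that build glutathione had values near 0. GCLC, the catalytic subunit of the first step, had a log2 fold change of 0.024 (SE 0.086), its partner GCLM one of 0.033 (SE 0.078), and GSS, of the last step, one of -0.011 (SE 0.064).

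ASNS, which makes asparagine and is a textbook target of ATF4, stood at 161, 163 and 149 CPM in vehicle and at 280.2, 242 and 249 CPM with A8. All 3 treated libraries exceeded every control, with a log2 fold change of 0.70 (SE 0.065, edgeR adjusted p = 4.46e-05). PCK2, the mitochondrial enzyme that makes phosphoenolpyruvate, went from 27.6, 28.0 and 27.0 CPM to 60.3, 50.4 and 41.7 CPM, with the vehicle values close together and the A8 values spread out. Its log2 fold change was 0.88 (SE 0.10, edgeR adjusted p = 0.000292). Of 11 enzymes tested for asparagine, alanine, proline and phosphoenolpyruvate, 2 were called, 8 lay above 0 and the median was 0.032. GPT2, the mitochondrial alanine aminotransferase, was not called at 0.33 (SE 0.067, edgeR adjusted p = 0.0651) although its libraries did not overlap. The proline enzymes PYCR1 and ALDH18A1 had values of 0.069 and 0.021.

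The stretches before the start sites of ASNS and CHAC1 are printed here because ATF4 and C/EBP partners are known to bind a shared element, and these were the 2 of 11 raised genes with a window that held its core. The windows are the 250 bases upstream of the annotated start in RefSeq (GRCh38.p14, while the counts were made on GRCh37), and 19 of the 22 called genes had one. The core was searched as TGATGNAA on both strands and occurred in 1.32% of the 11855 windows of genes tested. Capitals mark it, 68 to 61 bases upstream of the start in ASNS (chr7:97872409-97872658, reverse strand) and 209 to 202 bases upstream in CHAC1 (chr15:40953221-40953470, forward strand), where it reads TTGCATCA because it lies on the other strand.
ASNS: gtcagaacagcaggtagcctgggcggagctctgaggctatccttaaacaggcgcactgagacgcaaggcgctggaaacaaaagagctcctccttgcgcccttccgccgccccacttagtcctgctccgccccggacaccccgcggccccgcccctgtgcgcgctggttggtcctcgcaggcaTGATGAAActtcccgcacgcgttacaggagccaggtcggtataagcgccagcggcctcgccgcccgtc
CHAC1: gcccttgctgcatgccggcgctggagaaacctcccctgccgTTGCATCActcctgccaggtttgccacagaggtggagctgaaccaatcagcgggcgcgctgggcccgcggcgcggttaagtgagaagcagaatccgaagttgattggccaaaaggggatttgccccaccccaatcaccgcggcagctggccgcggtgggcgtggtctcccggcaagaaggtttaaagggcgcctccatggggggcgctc
A match is a string of letters and shows no binding. In ASNS the same bases overlap a match to GAANNTTC, 64 to 57 bases upstream, an element searched below for heat shock genes. The cyclic AMP response element TGACGTCA, present in 2.84% of all windows, was in 0 of the 19.

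Serine is made from a glycolytic intermediate by PHGDH, PSAT1 and PSPH and passes its carbon to folate through SHMT2 and MTHFD2 in mitochondria. PSAT1 measured 89.4, 97.3 and 97.2 CPM with vehicle and 144, 135 and 130.3 CPM with A8, for a log2 fold change of 0.53 (SE 0.06, edgeR adjusted p = 0.000282). MTHFD2 measured 140.4, 150.3 and 144 CPM and 208, 192 and 191 CPM, a log2 fold change of 0.44 (SE 0.062, edgeR adjusted p = 0.0023). In both genes the spread within each group was small against the gap between the groups. Of the 12 enzymes tested, 2 rose, 7 had an unadjusted p under 0.05, all on the higher side, and 7 had A8 libraries above every vehicle library. The median was 0.19. The mitochondrial members ALDH1L2 (0.52), MTHFD1L (0.29) and SHMT2 (0.24) were not called by edgeR, with edgeR adjusted p of 0.0786, 0.0755 and 0.182. DESeq2 called ALDH1L2 and MTHFD1L (DESeq2 adjusted p = 0.00264 and 0.00157). MTHFD2L, also mitochondrial, had -0.020. The cytosolic members MTHFD1 and SHMT1 had values of 0.047 and -0.0025, and TYMS, the thymidylate synthase, one of -0.046.

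SLC6A9, a glycine transporter, was the member that edgeR called among the amino acid carriers, at 25.5, 29.3 and 31.4 CPM in vehicle against 65.8, 55.1 and 50.1 CPM with A8. Its log2 fold change was 0.99 (SE 0.10, edgeR adjusted p = 0.000119). Of 12 carriers tested, 11 lay above 0, 10 had an unadjusted p under 0.05 on the higher side, 9 had no overlap between groups, and the median was 0.43. SLC7A5, which carries large neutral amino acids together with SLC3A2, measured 201, 228 and 267 CPM and 329.9, 323 and 296 CPM, with a log2 fold change of 0.45 (SE 0.091, edgeR adjusted p = 0.0673). SLC1A4, a carrier of serine and alanine, stood at 7.42, 10.5 and 7.66 CPM and 14.5, 14.0 and 12.6 CPM, with a value of 0.69 (SE 0.14, edgeR adjusted p = 0.0751). SLC43A1, another carrier of large neutral amino acids, was at 0.45 (SE 0.094, edgeR adjusted p = 0.0751). These 3 did not pass the adjustment in edgeR, although in each the A8 libraries lay above the vehicle libraries. DESeq2 called all 3 (DESeq2 adjusted p = 0.00151, 0.00278 and 0.00228), among 5 carriers that it called higher. SLC7A11, the cystine carrier, went from 5.05, 6.70 and 8.94 CPM to 10.9, 15.0 and 10.1 CPM, and its value of 0.80 had an SE of 0.24 and an adjusted p of 0.246 in edgeR. SLC36A4 was the carrier below 0, at -0.10 (SE 0.10).

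In the list of cytosolic tRNA synthetases 2 genes rose, while none in the mitochondrial list was called. CARS, for cysteine, measured 76.1, 77.6 and 69.0 CPM with vehicle and 103, 104 and 100.4 CPM with A8, for a log2 fold change of 0.46 (SE 0.069, edgeR adjusted p = 0.00496). GARS, for glycine, measured 371, 358 and 365 CPM and 492, 436 and 461 CPM, a log2 fold change of 0.34 (SE 0.058, edgeR adjusted p = 0.017). Of 20 cytosolic enzymes tested, 2 rose, 15 lay above 0, 13 had an unadjusted p under 0.05 on the higher side and 1 on the lower, and the median was 0.17. AARS (0.26), YARS (0.25), MARS (0.24) and SARS (0.26) were next by p-value, with edgeR adjusted p of 0.0751, 0.0859, 0.0987 and 0.124. FARSA, the catalytic subunit of the phenylalanine enzyme, had a value of -0.16 (SE 0.062), while FARSB, its partner, had 0.14 (SE 0.057). Of 17 mitochondrial enzymes 9 lay above 0, 0 were called and 1 reached an unadjusted p under 0.05 (RARS2, 0.15). Their median was 0.013. This list held no gene for glycine, and the difference between both lists was not tested.

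SESN2, which binds leucine and restrains the growth kinase mTORC1, measured 88.0, 84.4 and 83.9 CPM in vehicle and 143, 130.4 and 123 CPM with A8. Its log2 fold change was 0.63 (SE 0.074, edgeR adjusted p = 0.000292), and the other sestrins SESN1 and SESN3 had values of 0.082 (SE 0.089) and 0.13 (SE 0.18). DDIT4, another brake on mTORC1, measured 38.1, 29.5 and 26.8 CPM and 59.9, 46.2 and 43.7 CPM. Its groups did not overlap, but a log2 fold change of 0.67 with an adjusted p of 0.055 in edgeR left it outside the calls, while DESeq2 called it. EIF4EBP1, the translation repressor under mTORC1, had a value of 0.24 (SE 0.074, edgeR adjusted p = 0.276), and DEPTOR, a brake of another kind, one of -0.35 (SE 0.15, edgeR adjusted p = 0.441). Of the 11 mTORC1 and translation brakes tested 9 lay above 0 and the median was 0.082.

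STC2, a secreted glycoprotein induced by stress, measured 30.2, 31.3 and 29.1 CPM in vehicle and 62.6, 49.99 and 49.5 CPM with A8, for a log2 fold change of 0.84 (SE 0.087, edgeR adjusted p = 0.000131). Of 8 secreted stress factors tested it was the 1 that rose. Its relative STC1 lay on the other side at -0.74 (SE 0.44). ADM2, a peptide hormone, measured 0.713, 0.76 and 0.683 CPM and 1.57, 1.84 and 0.971 CPM, a value of 1.02 (SE 0.30, edgeR adjusted p = 0.249). GDF15, a stress cytokine often used as a readout of ATF4, was near the detection limit at 0.485, 0.253 and 0.0854 CPM and 0.437, 0.251 and 0.324 CPM, with a value of 0.29 (SE 0.55). Without vehicle 3 its fold change was -0.13, so it gave no direction. VEGFA, the vascular growth factor, had overlapping groups and a value of 0.21 (SE 0.11, edgeR adjusted p = 0.554).

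Among the transcription factors and feedback genes of the response NUPR1, a small chromatin-associated stress protein, was called from few reads. It had 39, 43 and 24 counts in the vehicle libraries and 102, 101 and 72 counts with A8, or 1.11, 1.21 and 0.683 CPM against 2.97, 2.82 and 2.12 CPM. The log2 fold change was 1.39 (SE 0.26, edgeR adjusted p = 0.0414). ATF4 itself measured 897, 846 and 765 CPM and 1094, 914 and 963 CPM. Its A8 libraries exceeded the vehicle libraries by a little, with a value of 0.24 (SE 0.084, edgeR adjusted p = 0.328), and it was not called. DDIT3, which encodes the stress factor CHOP, measured 4.39, 4.47 and 4.10 CPM and 6.09, 5.47 and 5.03 CPM, a value of 0.36 (SE 0.12, edgeR adjusted p = 0.343). ATF3, a repressor induced by ATF4, measured 12.6, 10.9 and 9.97 CPM and 18.1, 14.2 and 14.4 CPM, with 0.48 (SE 0.12, edgeR adjusted p = 0.181). DESeq2 called ATF3 (DESeq2 adjusted p = 0.0375). Values of 0.74 (SE 0.17, edgeR adjusted p = 0.1) for JDP2 and 0.39 (SE 0.12, edgeR adjusted p = 0.249) for CEBPG, both partners of ATF4 in DNA binding, missed the adjustment in edgeR. TRIB3, a feedback inhibitor of ATF4, stood at 0.18 (SE 0.10, edgeR adjusted p = 0.583), and PPP1R15A, the phosphatase subunit that reverses eIF2 phosphorylation, at 0.25 (SE 0.10, edgeR adjusted p = 0.398). Of the 11 genes tested 10 lay above 0, 7 had an unadjusted p under 0.05 on the higher side and 1, ATF5 (-0.23), on the lower, and the median was 0.36.

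The upstream machinery showed 0 called genes of 16 tested by either test, and 2 with an unadjusted p under 0.05. EIF2AK1, the kinase that senses heme and mitochondrial stress, measured 161, 168 and 171 CPM and 182, 184 and 182 CPM, with 0.13 (SE 0.053, edgeR adjusted p = 0.407). EIF2AK3, the kinase of the endoplasmic reticulum, had a value of 0.13 (SE 0.11). EIF2AK2, the kinase that binds double-stranded RNA, had one of 0.049 (SE 0.084) and EIF2AK4, which binds uncharged tRNA, one of 0.03 (SE 0.08). The sign of both last values turned in 2 alternatives each. Transcript levels of these kinases carry no measure of their activity. EIF2S2, the beta subunit of eIF2, was at 0.23 (SE 0.077, edgeR adjusted p = 0.299), and the 5 subunits of eIF2B lay between -0.11 and 0.082.

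Over the 8 lists of stress transcription factors, amino acid supply, tRNA charging in the cytosol, mTORC1 brakes and secreted factors, 95 of 97 members were tested. Of these 12 rose and 0 fell, 74 lay above 0, 47 had an unadjusted p under 0.05 on the higher side and 3 on the lower, and the median was 0.19. In 48 of them all A8 libraries lay above all vehicle libraries and in 6 below. Over all genes tested the shares were 8.47% above and 8.13% below, and 4.9% and 5.34% for an unadjusted p under 0.05. These lists were drawn up with earlier results of these data known and are a description. The gene that rose outside them was ZC3H6, a CCCH zinc finger gene, at 1.54, 1.58 and 1.20 CPM in vehicle and 3.35, 3.77 and 2.30 CPM with A8. Its log2 fold change was 1.13 (SE 0.21, edgeR adjusted p = 0.0414), from 54, 56 and 42 counts with vehicle and 115, 135 and 78 counts with A8.

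**Figure D3:**
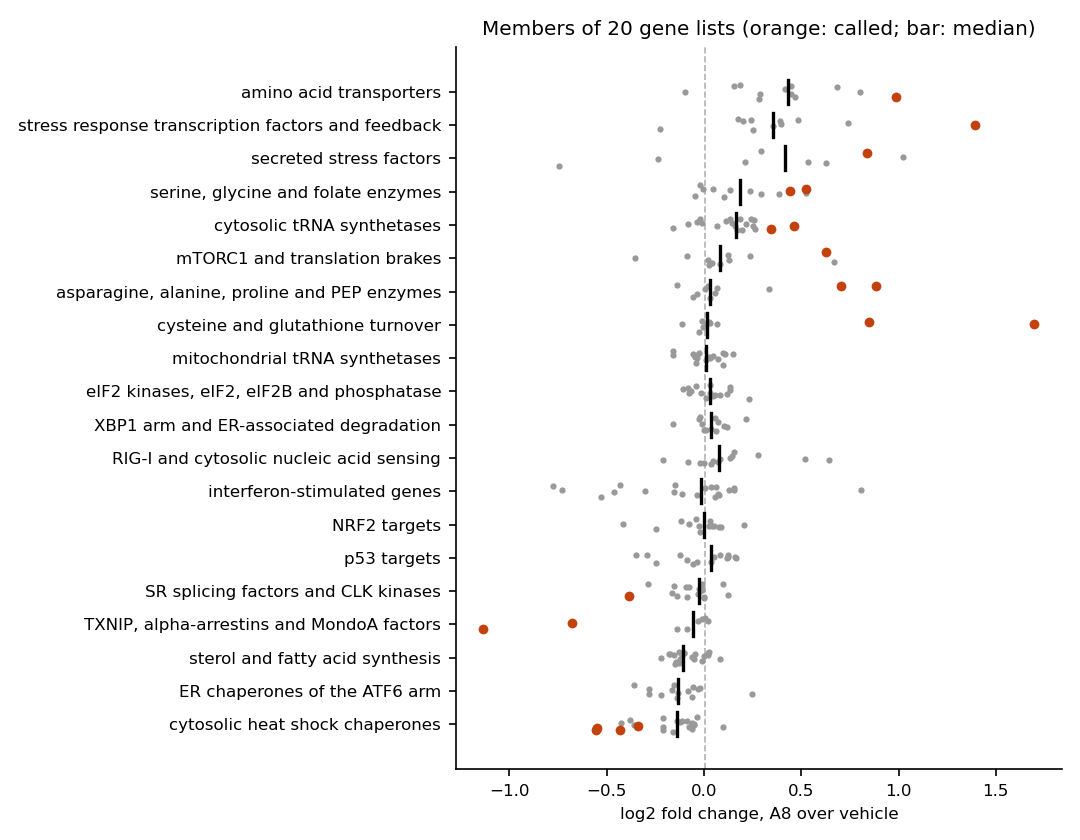
Each row is a gene list and each point 1 of its members tested, placed by its log2 fold change of A8 over vehicle on the horizontal axis. Orange points passed the adjusted p threshold, grey ones did not, the black bar is the list's median and the dashed line the median of all genes, 0.0069. Amino acid transporters (median 0.43), secreted stress factors (0.41) and stress transcription factors (0.36) stand to the right. The median of the secreted factors is imprecise, as it lies between GDF15 (0.29, SE 0.55) and FGF21 (0.54, SE 0.80). Heat shock chaperones (-0.14), endoplasmic reticulum chaperones of the ATF6 arm (-0.13) and sterol synthesis (-0.11) stand to the left. Lists of mitochondrial synthetases, interferon and NRF2 genes centre near 0.

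TXNIP, which binds thioredoxin and restrains glucose uptake, showed the largest fall among the called genes. It measured 9.10, 10.4 and 8.97 CPM with vehicle and 4.93, 4.13 and 3.91 CPM with A8, so no A8 library exceeded 4.93 CPM while no vehicle library lay under 8.97 CPM. The log2 fold change was -1.13 (SE 0.15, edgeR adjusted p = 0.00145). ARRDC4, its relative, measured 9.07, 7.60 and 9.48 CPM and 5.16, 5.80 and 5.36 CPM, a log2 fold change of -0.68 (SE 0.12, edgeR adjusted p = 0.0315). The other alpha-arrestins ARRDC1, ARRDC2 and ARRDC3 had values of -0.14, -0.031 and 0.019. MLXIP, the gene of MondoA, measured 102, 107 and 115 CPM and 100.5, 126 and 99.9 CPM, with overlapping groups and a value of 0.0062 (SE 0.091) whose sign turned in 4 alternatives. Its paralog MLXIPL had -0.084 (SE 0.11) and its partner MLX -0.0094 (SE 0.089). Of 19 genes of glucose uptake and glycolysis 0 were called. PGAM1, of lower glycolysis, had the smallest p among them at -0.21 (SE 0.069, edgeR adjusted p = 0.308), and the glucose transporter SLC2A1 stood at -0.13 (SE 0.066).

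Among the cytosolic chaperones of the heat shock programme 4 fell, all of them Hsp70 or Hsp40 genes. HSPA1A, an inducible Hsp70, measured 2144, 2049.8 and 2078 CPM in vehicle and 1350.4, 1392 and 1532 CPM with A8, for a log2 fold change of -0.55 (SE 0.063, edgeR adjusted p = 0.000282). HSPA1B, its neighbouring copy, measured 2784, 2672 and 2656 CPM and 1774, 1786 and 1979 CPM, with -0.55 (SE 0.063, edgeR adjusted p = 0.000282). Reads of this near-identical pair may have been split between the copies by the counting, so the separate values are uncertain and their likeness is no further observation. HSPA8, the constitutive Hsp70, measured 3733, 3882 and 3825 CPM and 2631, 2781 and 3061 CPM, with -0.43 (SE 0.07, edgeR adjusted p = 0.0121). DNAJB1, an Hsp40 partner, measured 229.7, 229 and 226 CPM and 188, 172 and 181 CPM, with -0.34 (SE 0.056, edgeR adjusted p = 0.0154). In each of the 4 genes A8 and vehicle libraries were apart, and A8 3 was the highest or the middle of the A8 libraries.

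Of 23 heat shock genes tested, 4 fell, 22 lay below 0, 10 had an unadjusted p under 0.05 on the lower side and 0 on the higher, and the median was -0.14. BAG3, a nucleotide exchange factor of Hsp70, was at -0.21 (SE 0.069, edgeR adjusted p = 0.303) and DNAJA1, another Hsp40, at -0.21 (SE 0.077, edgeR adjusted p = 0.368). The Hsp90 genes HSP90AA1 and HSP90AB1 had values of -0.059 (SE 0.061) and -0.11 (SE 0.069). HSF1, the master factor of the programme, had overlapping groups and a value of -0.034 (SE 0.054), and HSF2, at 0.10 (SE 0.071), was the member above 0. HSPA6, an Hsp70 that is nearly silent without heat, had a value of -0.43 (SE 0.47). The mitochondrial chaperones and proteases had 0 of 11 called, none at an unadjusted p under 0.05, and a median of -0.012, whose sign turned in some alternatives.

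Windows upstream of the lowered chaperones are shown because the known heat shock element is built of inverted GAA units. It was searched on both strands as GAANNTTC, found in 4.03% of 11855 windows, and as TTCNNGAA, found in 5.02%. Both forms can share a unit. Of the 8 lowered genes with a window 3 held the first form, HSPA1A (chr6:31815293-31815542, forward strand), HSPA1B (chr6:31827488-31827737, forward strand) and HSPA8 (chr11:123062137-123062386, reverse strand), and HSPA8 also held the second. Capitals mark the matches, which lie 106 to 99 bases before the start in HSPA1A and 105 to 98 in HSPA1B. In HSPA8 the overlapping matches span 230 to 218 and 55 to 43 bases before the start.
HSPA1A: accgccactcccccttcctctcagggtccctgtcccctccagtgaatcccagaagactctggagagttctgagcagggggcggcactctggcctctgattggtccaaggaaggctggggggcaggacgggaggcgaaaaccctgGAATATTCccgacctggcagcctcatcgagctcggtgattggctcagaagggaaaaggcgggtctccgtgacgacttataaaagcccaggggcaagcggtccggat
HSPA1B: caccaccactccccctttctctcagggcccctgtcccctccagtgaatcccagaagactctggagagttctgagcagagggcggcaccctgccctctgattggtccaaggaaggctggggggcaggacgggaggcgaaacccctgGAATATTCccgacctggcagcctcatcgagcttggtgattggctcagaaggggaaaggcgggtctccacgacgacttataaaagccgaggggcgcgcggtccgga
HSPA8: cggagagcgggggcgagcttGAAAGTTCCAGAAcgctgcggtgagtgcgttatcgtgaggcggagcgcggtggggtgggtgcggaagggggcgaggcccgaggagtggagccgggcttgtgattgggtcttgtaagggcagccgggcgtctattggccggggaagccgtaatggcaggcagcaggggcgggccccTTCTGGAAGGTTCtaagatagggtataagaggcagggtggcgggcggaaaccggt
The windows of HSPA1A and HSPA1B were 93.6% identical over 251 aligned positions, with 14 mismatches and 2 gaps. The window of DNAJB1 held neither form.

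For ARRDC4 the window held the E-box CACGTG, a core that MondoA with MLX is known to bind, at 210 to 205 bases before the start (chr15:97960453-97960702, forward strand). That core was in 8.94% of all windows and in 1 of the 8 of lowered genes, and it is in capitals here.
ARRDC4: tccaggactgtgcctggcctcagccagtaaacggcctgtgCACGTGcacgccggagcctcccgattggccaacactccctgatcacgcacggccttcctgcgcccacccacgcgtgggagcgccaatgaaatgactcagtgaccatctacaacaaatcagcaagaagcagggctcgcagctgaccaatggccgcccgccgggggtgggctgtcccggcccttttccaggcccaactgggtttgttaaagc
The window of TXNIP held no such match, and the known sugar-responsive element combines imperfect E-boxes that this search does not read.

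The 3 further genes that fell belong to no common group. SRSF11, a splicing factor with an arginine and serine rich domain, measured 355, 398 and 366 CPM and 286, 283 and 289 CPM, a log2 fold change of -0.38 (SE 0.069, edgeR adjusted p = 0.0315). TPRA1, a membrane protein gene, measured 73.2, 68.3 and 66.3 CPM and 54.7, 51.9 and 52.7 CPM, with -0.38 (SE 0.068, edgeR adjusted p = 0.028). LOC101927883, an uncharacterised locus, measured 15.5, 17.2 and 16.6 CPM and 11.2, 10.8 and 12.5 CPM, with -0.52 (SE 0.094, edgeR adjusted p = 0.0315). A8 libraries of SRSF11 were close together, while its vehicle libraries spread more. Among 18 SR splicing factors and CLK kinases SRSF11 was the 1 called, 15 lay below 0 and the median was -0.027. SRSF2 measured 1005, 949 and 968 CPM and 794, 794 and 808 CPM. It was called by DESeq2 but not by edgeR, at -0.29 (SE 0.06, edgeR adjusted p = 0.0751).

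In the endoplasmic reticulum list of ATF6 targets 13 of 14 genes lay below 0, 0 were called by edgeR, and 8 had an unadjusted p under 0.05 on the lower side and 1 on the higher. The median was -0.13. HSPA5, the chaperone BiP, measured 530.4, 565 and 579 CPM and 424, 466 and 489 CPM, with -0.28 (SE 0.066, edgeR adjusted p = 0.124). SDF2L1 and MANF, both secretory pathway cofactors, had values of -0.36 (SE 0.085) and -0.28 (SE 0.078). HERPUD1, which acts in degradation at this membrane and is also a target of ATF4, was the exception at 0.25 (SE 0.059, edgeR adjusted p = 0.125), with 64.0, 63.4 and 64.2 CPM and 78.0, 76.9 and 72.7 CPM. All 3 A8 libraries of HERPUD1 lay above the vehicle libraries, whereas those of HSPA5 lay below. DESeq2 called HSPA5 and SDF2L1 lower (DESeq2 adjusted p = 0.00571 and 0.0138) and HERPUD1 higher (DESeq2 adjusted p = 0.0057). Of 13 genes of the XBP1 arm and degradation 0 were called and 0 had an unadjusted p under 0.05, and XBP1 itself had 0.12 (SE 0.066, edgeR adjusted p = 0.564).

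The antiviral genes that RIG-I signalling induces gave no call. DDX58, which encodes RIG-I, measured 1.85, 1.97 and 2.93 CPM and 2.80, 3.40 and 3.50 CPM, with overlapping groups and 0.52 (SE 0.21, edgeR adjusted p = 0.413). IFIH1, the related sensor MDA5, stood at 0.342, 0.225 and 0.256 CPM and 0.262, 0.614 and 0.412 CPM. Of 14 sensing genes tested edgeR and DESeq2 called 0, but DESeq2 gave DDX58 and IFIH1 no adjusted p and could not call them. Of the 14, 11 lay above 0, and 1 had an unadjusted p under 0.05 on each side. IRF3, the factor downstream of RIG-I, had -0.21 (SE 0.083, edgeR adjusted p = 0.41). IFNB1, MX2, OAS1, OAS2, IFI44, RSAD2, CXCL10 and XAF1 had 0 counts in all 6 libraries, and 13 of the 33 interferon-stimulated genes listed were not tested. Of the 20 tested 10 lay above 0 and 10 below and 0 were called by either test, though DESeq2 gave low genes such as IFIT1 no adjusted p. IFIT1 and IFIT5, the 2 with an unadjusted p under 0.05, had values of -0.46 (SE 0.20) and -0.30 (SE 0.10). The 16 NF-kB targets gave 8 genes tested, 0 called and 0 with an unadjusted p under 0.05, with IL8 at 0 to 8 counts in a library.

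Lists of other stress programmes and of sterol synthesis had 0 members called by edgeR, while DESeq2 called 1 NRF2 target, 1 immediate early gene and 1 sterol gene. Among 14 NRF2 targets HMOX1, the heme oxygenase, was at 0.20 (SE 0.077, edgeR adjusted p = 0.392) and SRXN1, a sulfiredoxin, on the other side at -0.41 (SE 0.094, edgeR adjusted p = 0.103). CDKN1A, the cell cycle inhibitor, had a value of -0.35 (SE 0.15, edgeR adjusted p = 0.426) among 15 p53 targets, in a line whose large T antigen binds p53. CYP1A1 and CYP1B1, readouts of the aryl hydrocarbon receptor, had values of -0.47 (SE 0.39) and -0.66 (SE 0.30). Of the 16 immediate early genes JUNB had -0.49 (SE 0.10, edgeR adjusted p = 0.0673) and EGR1, whose vehicle libraries ranged from 9.79 to 20.1 CPM, had -0.66 (SE 0.21). Sterol and fatty acid synthesis had 18 of 22 genes below 0 and a median of -0.11, with MVD, of the mevalonate pathway, at -0.22 (SE 0.059, edgeR adjusted p = 0.197).

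The remaining lists also had 0 called members in edgeR. They cover snoRNA host transcripts, autophagy, nuclear genes of the respiratory chain, the proteasome, DNA replication, mitosis, hypoxia, metallothioneins, line markers, clustered histones and cytosolic ribosomal proteins. Their medians lay between -0.11 for line markers and 0.24 for 3 metallothioneins. RRM2, of DNA synthesis, had a value of -0.21 (SE 0.059, edgeR adjusted p = 0.214), and CDC20, of mitosis, one of -0.21 (SE 0.07, edgeR adjusted p = 0.299). In the lists without an edgeR call, DESeq2 also called the 3 ATF6 targets given above and 1 gene of DNA replication. The ribosomal protein median of 0.036 over 84 genes turned to -0.062 without vehicle 3.

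Some genes were called by DESeq2 and not by edgeR. On the higher side the 6 with the smallest DESeq2 adjusted p were YARS, AARS, DDIT4, GPT2, MARS and BBS2, the last a subunit of the BBSome of cilia. BBS2 measured 24.3, 23.7 and 22.5 CPM and 30.0, 29.9 and 32.3 CPM, with 0.39 (SE 0.074, edgeR adjusted p = 0.0515). On the lower side SRSF2 and JUNB, given above, were among them, and PRPF38B, a splicing factor, measured 154, 152 and 153 CPM and 123, 129 and 124 CPM, with -0.29 (SE 0.06, edgeR adjusted p = 0.0681). DHX34, an RNA helicase of nonsense-mediated decay, had -0.26 (SE 0.057, edgeR adjusted p = 0.0917), ZIC2, a developmental transcription factor, -0.25 (SE 0.056, edgeR adjusted p = 0.0987), and the uncharacterised LOC101929046 -0.38 (SE 0.079, edgeR adjusted p = 0.0681). Of the 63 genes DESeq2 called higher 25 belong to the 8 stress lists, and of its 69 called lower 4 to the heat shock list. Among all 15591 genes tested in edgeR these lists hold 95 and 23. DESeq2 gave an adjusted p to 10124 genes, and the lists' share of those was not counted.

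Several abundant transcripts differed by less than the adjustment asks, with an unadjusted p under 0.05 and no overlap between groups. On the higher side PABPC1, the poly(A) binding protein, measured 941, 989 and 985 CPM and 1106, 1176 and 1146 CPM, with 0.23 (SE 0.057, edgeR adjusted p = 0.151), and FLNA, the actin crosslinker filamin A, had 0.22 (SE 0.071, edgeR adjusted p = 0.29). On the lower side CKB, a creatine kinase, had -0.15 (SE 0.063, edgeR adjusted p = 0.428), and RPL27, a ribosomal protein, -0.17 (SE 0.067, edgeR adjusted p = 0.408). BCYRN1, a short noncoding RNA with near-identical copies in the genome, had -0.57 (SE 0.17, edgeR adjusted p = 0.256) and is uncertain for that reason. With the GC trend removed the value of CKB was 0.0036.

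Fold changes ran against transcript GC content, with a Spearman rho of -0.305 across the 13544 genes with a value, which are not independent replicates. The median log2 fold change was 0.053 in the lowest of 4 equal bins of GC content and -0.076 in the highest. With this trend removed from each library 16 genes were called higher and 12 lower, and 11 and 9 of them were among the calls above. GARS and ZC3H6 were the 2 calls lost. Among the smaller values AARS then had 0.25, ATF3 0.47 and ALDH1L2 0.48, while the signs of CKB, HSF1, EIF2AK2 and EIF2AK4 turned. The cause of the trend was not tested.

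In the libraries with ISRIB the same contrast was measured by A8 with ISRIB against vehicle with ISRIB, and edgeR tested the difference between both effects for all 15591 genes. It called 4 (0.0257%), and all are among the 22. The effect of A8 on SLC6A9 was 0.99 without ISRIB and 0.037 (SE 0.12) with it, where levels were 15.9 and 17.8 CPM in vehicle and 16.8, 18.0 and 17.2 CPM with A8. That of PSAT1 was 0.53 and -0.093 (SE 0.068). HSPA1A went from -0.55 to 0.072 (SE 0.07), at 2212 and 2088 CPM and 2257, 2329 and 2196 CPM with ISRIB, and HSPA1B from -0.55 to 0.088 (SE 0.07). HSPA8 had -0.31 (SE 0.078) with ISRIB and a difference of -0.12 (SE 0.11, edgeR adjusted p = 0.791), and DNAJB1 had 0.019 (SE 0.063) and a difference of -0.36 (SE 0.085, edgeR adjusted p = 0.267). The count of called differences was 0 without vehicle 2, A8 1, A8 2, A8 with ISRIB 1, A8 with ISRIB 2 or the second vehicle library with ISRIB, where edgeR gave 758 to 1547 genes an unadjusted p under 0.05, against 1322 with all libraries. It was 1 without the first vehicle library with ISRIB, and DESeq2 called 51 genes. TXNIP stayed called lower with ISRIB, at -1.37 (SE 0.17, edgeR adjusted p = 0.00412), and its difference of 0.24 was not called (adjusted p = 0.803). CHAC1 had 0.62 (SE 0.19) with ISRIB and a difference of 1.08 (SE 0.24, edgeR adjusted p = 0.241). NUPR1, from few counts, had 1.47 (SE 0.38) with ISRIB and a difference of -0.076 (SE 0.44, edgeR adjusted p = 0.978). SRSF11 had -0.38 (SE 0.076) and a difference of -0.0053 (SE 0.10, edgeR adjusted p = 0.993). The 22 genes were chosen by their effect without ISRIB, which is 1 side of each difference. The effect with ISRIB was not itself used, but the libraries with ISRIB entered the choice through the filter and the estimate of the spread.

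**Figure D4:**
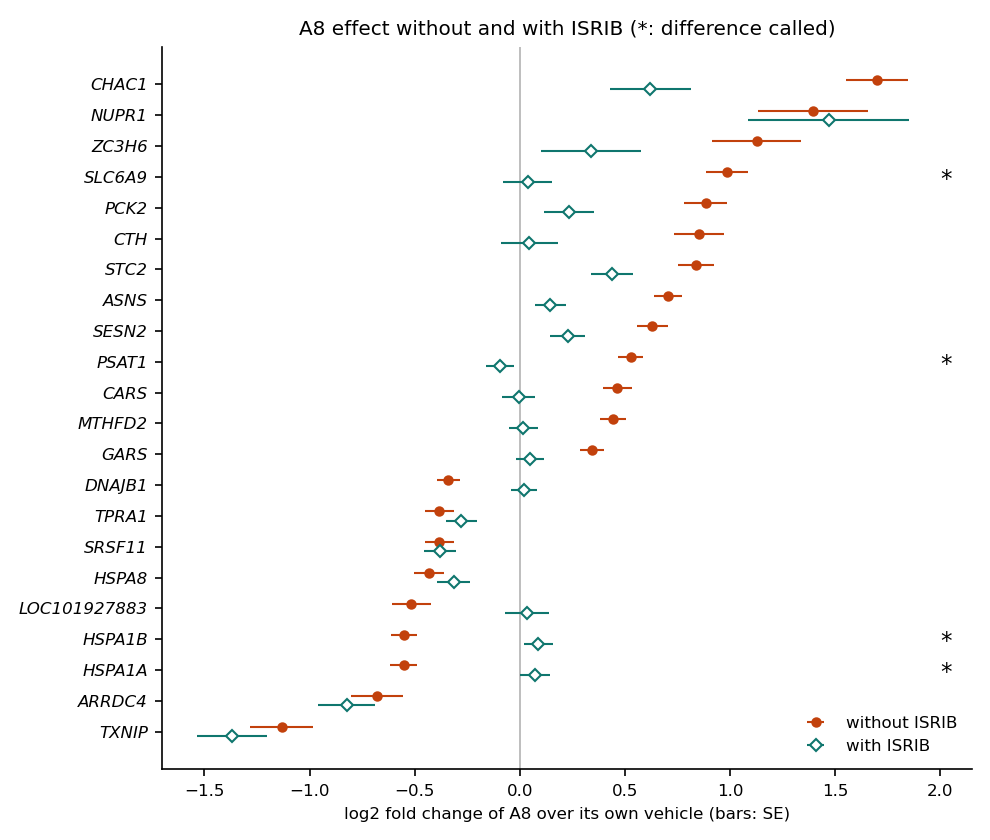
Each row is 1 of the 22 called genes, with the log2 fold change of A8 over vehicle on the horizontal axis, filled circles without ISRIB and open diamonds with it, and bars of 1 standard error. Asterisks mark the 4 genes whose difference was called, SLC6A9, PSAT1, HSPA1A and HSPA1B. The open diamonds of NUPR1 (1.47), SRSF11 (-0.38), TPRA1 (-0.28), HSPA8 (-0.31), TXNIP (-1.37) and ARRDC4 (-0.82) lie close to the filled circles.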

How the data were processed

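Poly(A) RNA of 11 HEK293T libraries was sequenced from dUTP stranded libraries on a DNBSEQ platform, per the labels' protocols. The authors deposited whole-number counts per gene symbol, made on GRCh37, and a DESeq2 table per the file headers with mean normalized count (a signal), log2 fold change, its standard error and Wald statistic (scores) and p-values. The genome build, DESeq and DESeq2 are named in the submitters' processing notes, and no source used here gives the aligner, counter, strand setting or annotation. The authors' deposited table was read only for the closing values.

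All 11 libraries were fitted by group with edgeR 4.0.16 (filterByExpr, TMM scaling, quasi-likelihood test, Benjamini-Hochberg adjustment, threshold 0.05) in R 4.3.3. Of the 27671 genes 6426 had 0 counts in every library. Standard errors were derived from the quasi-likelihood F statistic, and levels are TMM-scaled CPM. DESeq2 1.42.0 was the alternative, whose low genes have no adjusted p. GC content came from GENCODE transcripts on GRCh38 and promoter windows from RefSeq on GRCh38.p14, joined by symbol. Same-numbered A8 and vehicle libraries correlated in their deviations at r = 0.14, 0.017 and -0.016, and the other pairs at -0.12 to 0.10. With 3 libraries a group these values cannot settle whether the numbers pair the libraries, and the main fit used no pairing. On only the 6 libraries a replicate block gave 19 genes higher and 8 lower, against 12 and 8 without it. The vehicle libraries with ISRIB were assigned to their group only, since column and title numbers differ. The fit was tested on simulated data.

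The comparison and the 37 gene lists (699 members) were chosen with earlier results of these data known. Genes named are every called gene, the members of each list with the smallest unadjusted p under 0.05, fixed genes of the stress and antiviral pathways, the most abundant genes without overlap, and the genes called by DESeq2 alone with the smallest adjusted p. Pathway partners named beside these were chosen for their role after the values were seen.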

Additional observations from a re-analysis of the deposited data

Results flagged for a closer look

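For 4 genes the effect of A8 differed between cells without and with ISRIB by a test of the difference itself (edgeR interaction, adjusted over 15591 genes), here as the log2 fold change without ISRIB minus that with ISRIB. The difference was 0.95 (SE 0.15, edgeR adjusted p = 0.0443) for SLC6A9, the glycine transporter, and 0.62 (SE 0.091, edgeR adjusted p = 0.0243) for PSAT1, of serine synthesis. It was -0.63 (SE 0.094) for HSPA1A and -0.64 (SE 0.094) for HSPA1B, each with an edgeR adjusted p of 0.0243, and these near-identical copies count as 1 observation. With ISRIB PSAT1 stood at 81.9 and 84.9 CPM in vehicle and 77.5, 79.2 and 77.7 CPM with A8, and HSPA1B at 2836 and 2705 CPM and 2904, 3057 and 2872 CPM. With ISRIB the A8 libraries of PSAT1 lay a little under and those of HSPA1B a little above the vehicle libraries. Among the 13 genes called higher 12 had a difference of the same sign as their effect, with a median of 0.56, and among the 9 called lower 7 had, with a median of -0.12. The genes were chosen for the effect that enters this difference, so both counts are a description. The groups held no more than 3 libraries, so no library was set aside as an outlier, although vehicle 3 stood apart as given above.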

How the results depend on the processing

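The 22 calls kept their direction under every alternative run. DESeq2 called 63 genes higher, 69 lower and 51 for the difference between the effects without and with ISRIB. With no filter on low counts edgeR called 59, 45 and 26. DESeq2 size factors and a minimum of 50 counts left 13 and 9, and only the 6 libraries gave 12 and 8. Leaving out 1 library gave 10 to 33 genes higher, 3 to 17 lower and 0 to 6 for the difference (4 with all libraries). Counts were 20 higher and 12 lower without A8 with ISRIB 1 and 33 and 17 without A8 with ISRIB 3. On the lower side they were 5 without vehicle 2 or A8 3, 4 when A8 1 was left out and 3 when A8 2 was. A fit with the replicate block and only the 6 libraries called 19 higher and 8 lower. ARRDC4, LOC101927883 and ZC3H6 were lost with only the 6 libraries, with or without the replicate block. With the GC trend removed, chosen after seeing the data, the counts were 16, 12 and 1. Signs turned for small values: CKB to 0.0036, HSF1 to 0.062, EIF2AK2 to -0.0068 and EIF2AK4 to -0.015 with GC removed, and MLXIP to -0.0010 with the replicate block. Leaving out 1 of the 6 libraries moved EIF2AK2 between -0.0044 and 0.084, EIF2AK4 between -0.0079 and 0.090, GDF15 between -0.13 and 0.97 and MLXIP between -0.11 and 0.065, with -0.034 without vehicle 1 and -0.00060 without vehicle 2. The ribosomal protein median moved to -0.062 without vehicle 3. The cause of these changes was not tested. Genes near 1 CPM, such as NUPR1, rest on few counts a library, and 3 libraries a group from 1 cell line set the precision.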

Other observations

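The 13 mRNAs encoded in the mitochondrial genome, a group chosen after their values were seen, all lay above 0 with A8. Their summed level was 7.92%, 7.25% and 9.63% of scaled counts in the vehicle libraries and 10.8%, 9.13% and 11.3% in the A8 libraries, so the groups overlapped. In edgeR 9 had an unadjusted p under 0.05 and 0 were called, and the median log2 fold change was 0.38. ATP6, a subunit of the ATP synthase, had 0.38 (SE 0.13, edgeR adjusted p = 0.33), CYTB, of complex III, 0.52 (SE 0.16, edgeR adjusted p = 0.256), ND5, of complex I, 0.50 (SE 0.14, edgeR adjusted p = 0.207), and COX3, of complex IV, 0.17 (SE 0.083, edgeR adjusted p = 0.488). The nuclear genes of the respiratory chain had a median of 0.034 over 26 genes, with 0 called.

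With an adjusted p under 0.05 the authors' deposited table has 46 higher and 19 lower genes, of which 24 belong to the 8 stress lists and 4 to the heat shock list. Among those it adds to the edgeR calls are TSC22D3, a glucocorticoid-induced leucine zipper gene, at a log2 fold change of 0.46 in the authors' deposited table, and SPTLC2, of sphingolipid synthesis, at 0.50 there. On the lower side the authors' deposited table has POU3F1, a neural transcription factor, at -1.15 and PGF, a vascular growth factor, at -0.84. For KTI12 the authors' deposited table gives 18.93, a fitted value that is no measured fold, since all 3 vehicle libraries had 0 counts. The A8 libraries stood at 4.31, 3.65 and 0 CPM, and edgeR did not call it (adjusted p = 0.278).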
